A study of Mus musculus with 9 samples.

Results

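The mouse genes whose symbols begin with Kcn encode the subunits of potassium channels, and 93 of them were described here across 3 culture conditions of adult neural stem cells (NSCs). They were taken by symbol from the 55704 genes of the deposited table. Of 99 such symbols in the annotation, 5 were antisense or other non-coding genes and were left out, and Kcnj10 was not among the members. The choice went by symbol and used no expression value, although earlier results of these data were known when it was made. The members comprise 76 genes for pore-forming or pore-modifying subunits and 17 genes without a pore, which are auxiliary subunits and the regulator Kcnrg. The NSCs came from the subventricular zone of adult C57BL/6 mice of 8 to 9 weeks (2 females and 2 males pooled per isolation), had been passaged in suspension and were plated on poly-L-ornithine and laminin. Cells kept in bFGF and EGF were collected on day 0 (bFGF/EGF-treated NSCs, n = 3). Cells given bFGF and BMP4, or BMP4 alone, were collected on day 6 (bFGF/BMP4-treated NSCs, n = 3, and BMP4-treated NSCs, n = 3), with each factor at 20 ng/mL. Since the bFGF/EGF cells were not kept for the same number of days, treatment and time in culture cannot be told apart in comparisons with them. Both media with BMP4 also lacked EGF, so added BMP4 and withdrawn EGF cannot be told apart there either. The labels call the 3 samples of a group biological replicates without naming separate animals, so p-values measure the spread between these samples.

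A potassium channel is a pore through the membrane that lets potassium ions pass and holds back the smaller sodium ions. Voltage-gated (Kv) channels open on depolarisation, calcium- and sodium-activated channels open when those ions rise inside the cell, inward rectifiers carry potassium best near the resting potential, and tandem-pore (K2P) channels leak potassium at rest. In the adult brain the leak and inward rectifier channels are known for the very negative resting potential of astrocytes and stem cells of the radial glia type, and the fast Kv channels for the repolarisation of neuronal spikes. Auxiliary subunits have no pore and change the gating or the delivery of their partners.

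The pore is also where these genes are alike in sequence. The coding sequences of the members were searched in frame for the selectivity filter signature, here the codons of threonine or serine, then of valine, isoleucine or leucine, then of glycine, of tyrosine or phenylalanine, and of glycine. Of the 62 members of the single-pore classes, 62 held exactly 1 match. Of the 14 K2P members, whose subunits carry a pair of pore loops, 10 held 2 matches, 2 held 1 and 2 held none, which says only that these letters are not there. None of the 17 auxiliary subunits and regulator held a match. Filters are shown for 6 genes of 5 pore classes, so that the stretch shared by members that moved in opposite directions can be seen. Each is the 27-base coding stretch, 5′ to 3′, with the 15 bases of the signature in capitals, read from the GRCm39 genome.
Kcna6: atgaccACGGTAGGTTATGGGgacatg
Kcnc4: atgacaACGCTTGGCTATGGGgacatg
Kcnv1: atgactACAGTAGGATATGGGgacatt
Kcnh2: ctcaccAGCGTGGGCTTTGGCaatgtc
Kcnma1: atgtctACAGTGGGTTATGGGgacgtt
Kcnk2: ctgacgACCATTGGATTTGGAgactac
Each of these signatures lies within 1 coding exon. The capitals cover chr6:126715610-126715624 on the minus strand for Kcna6, chr3:107355115-107355129 on the minus strand for Kcnc4 and chr15:44972685-44972699 on the minus strand for Kcnv1. They cover chr5:24530553-24530567 on the minus strand for Kcnh2, chr14:23578481-23578495 on the minus strand for Kcnma1 and chr1:188988778-188988792 on the minus strand for Kcnk2.

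Levels are given as FPKM, fragments counted relative to gene length and library size, which allows genes to be compared per length. The libraries held 15892849 to 17222564 fragments on genes, rebuilt from the FPKM values. Of the 93 members, 64 had a mean of at least 0.1 FPKM over the 9 libraries and were tested, and 2 of these (Kcnk9 and Kcns3) reached that level in the BMP4 group only. The other 29 were not tested and had no group mean above 0.265 FPKM (Kcnh8), and 3 of them (Kcnk15, Kcnk16 and Kcnv2) were at 0 in every library. At most 3 fragments per library, the floor used here, were found for 22 members with bFGF/EGF, 27 with bFGF/BMP4 and 19 with BMP4. A fold given below as at least some value sets the mean of the other group against 3 fragments per library. It is a bound on group means, and single libraries can lie below it. A member was called changed at a limma adjusted p of at most 0.05 and at least a 2-fold difference on the log2(FPKM + 0.1) scale, which understates the change of low genes. Fold changes below are log2 values ± standard error (SE) from that fit with 3 libraries per group, and adjusted p-values are Benjamini-Hochberg values over the 20207 genes tested. In bulk RNA fewer cells of a type and less RNA per cell cannot be told apart.

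Of the NSC markers, Sox2 had group means of 167, 137 and 137 FPKM with bFGF/EGF, bFGF/BMP4 and BMP4 and Nes 151, 3.55 and 15.8 FPKM. The summed FPKM of the 8 NSC markers ranged over the libraries from 1717 to 1825, from 695 to 797 and from 1533 to 1973 in the same order, with 4 called higher and 0 lower in BMP4 than in bFGF/BMP4. Marker lists of other cells also moved with the groups. The 7 astrocyte markers summed to 178 to 243, 673 to 768 and 3691 to 4573 FPKM, and 5 of the 7 were called higher and 1 lower in BMP4 than in bFGF/BMP4. The 7 oligodendrocyte precursor markers summed to 1563 to 2264, 1313 to 1797 and 216 to 423 FPKM, with 0 called higher and 3 lower in that comparison. The 11 neuronal markers summed to 79.6 to 96.0, 49.0 to 55.1 and 145 to 217 FPKM, with 4 higher and 2 lower. The 7 ependymal markers summed to 6.79 to 11.4, 10.7 to 11.4 and 55.3 to 65.1 FPKM, with 3 higher and 0 lower, and Tmem212, Hydin and Spag17 were below 0.1 FPKM throughout. The 8 oligodendrocyte markers summed to 1.45 to 2.02, 5.92 to 7.19 and 21.1 to 26.6 FPKM, with 1 higher and 1 lower, and Mog, Mag, Mobp and Ermn were below 0.1 FPKM. The 7 mural markers summed to 12.2 to 21.0, 17.9 to 23.6 and 33.9 to 39.0 FPKM, with 2 higher and 0 lower. The 6 microglial and 5 endothelial markers summed to at most 1.75 and 4.13 FPKM in any library, each list with 1 higher and 0 lower. Over all tested genes, 8.41% were called higher and 5.14% lower in BMP4 than in bFGF/BMP4. The part of these markers in the results that follow was not tested.

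The members moved in both directions. The members summed to 279 ± 17.0 FPKM (SD, n = 3) in bFGF/EGF-treated NSCs, 265 ± 15.5 in bFGF/BMP4-treated NSCs and 322 ± 14.2 in BMP4-treated NSCs. Of the 64 tested members, 22 rose and 15 fell in bFGF/BMP4-treated against bFGF/EGF-treated NSCs, while 16.5% of all tested genes rose and 14.1% fell. In BMP4-treated against bFGF/EGF-treated NSCs, 25 rose and 14 fell, beside 21.3% and 15.4% of all tested genes. In BMP4-treated against bFGF/BMP4-treated NSCs, 13 rose and 10 fell, beside 8.41% and 5.14% of all tested genes. These counts come to 57.8%, 60.9% and 35.9% of the tested members against 30.6%, 36.6% and 13.5% of all tested genes. The 25 and the 13 that rose with BMP4 include Kcnk9 and Kcns3, which reached the test's level in the BMP4 group only. The median log2 fold changes of the tested members were 0.19, 0.62 and 0.05 in the same order, beside 0.06, 0.10 and 0.00 over all tested genes. In the first comparison 5 members were at the floor in 1 of the groups, and with these set to their bounds its median was 0.06. Of the 5, only Kcns3 changed sign, from a fitted 0.61 to a bound of 0.911-fold. A bound below 1 does not show a fall, so this lower median says little. With 4 and 3 members set to their bounds in the other comparisons, those medians stayed at 0.62 and 0.05. Both comparisons with bFGF/EGF use the same 3 control libraries. In all, 51 of the 64 tested members were called in at least 1 comparison and 8 in all 3. The matching shares over all tested genes are not given here, nor for the counts of members with joint calls below. Those counts are descriptions only.

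**Figure D1:**
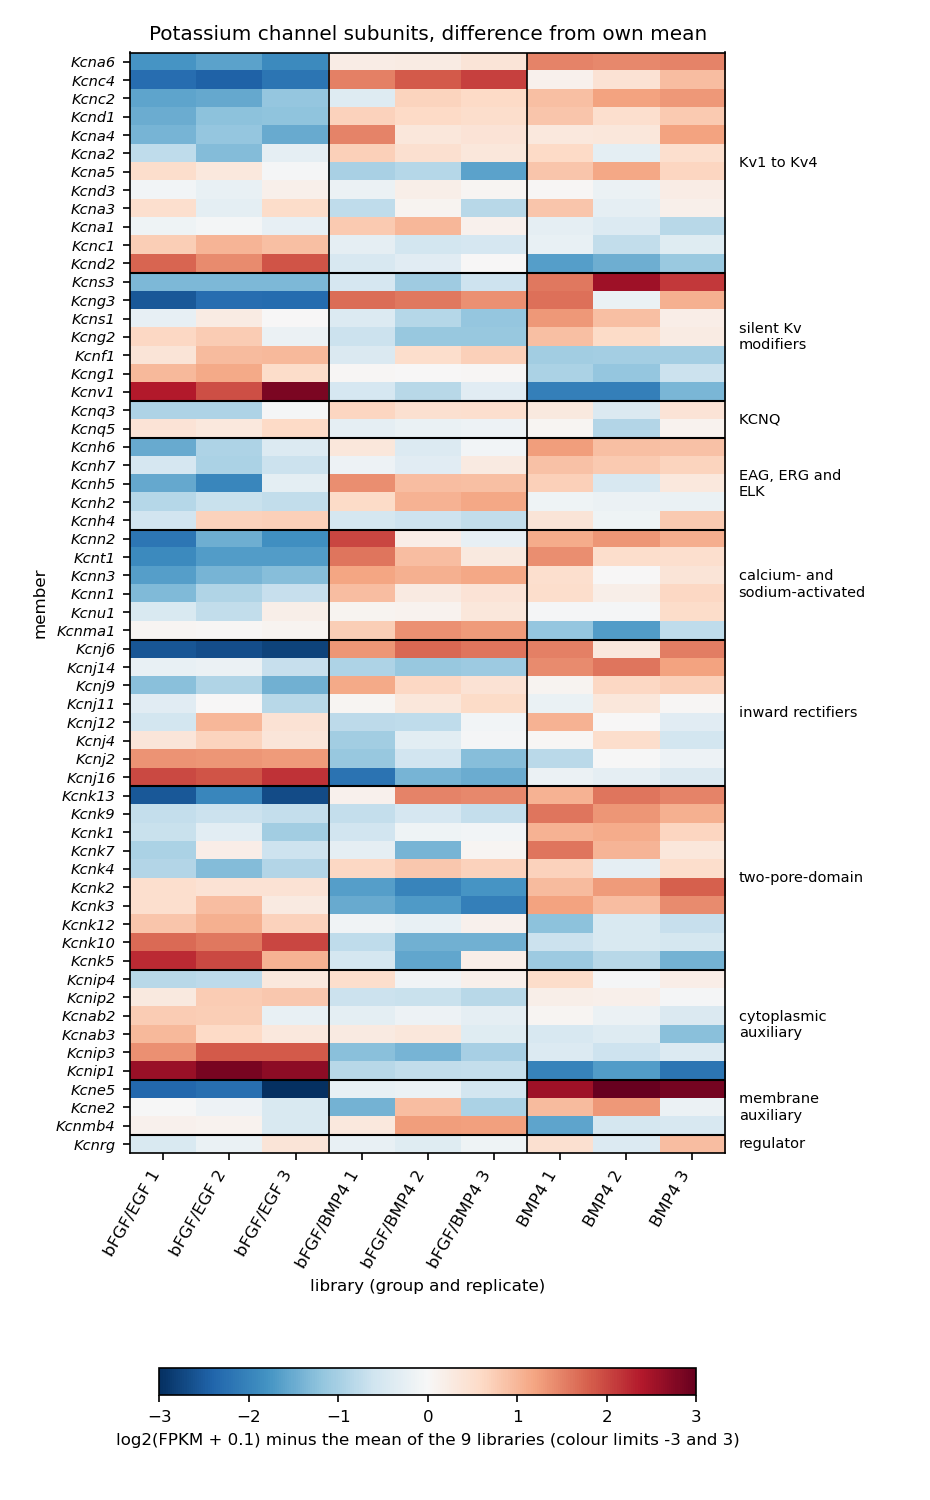
Level of 60 of the 64 tested members (rows, grouped by class) in the 9 libraries (columns) as log2(FPKM + 0.1) minus the member's own mean, red above and blue below that mean. Within most classes some rows are red in the bFGF/EGF libraries and others are blue there, and Kcne5 and Kcns3 are darkest red in the BMP4 libraries.

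The classes of channel differed in their summed level. The K2P members summed to 30.1 ± 3.96 FPKM (SD, n = 3) in bFGF/EGF-treated NSCs, 41.5 ± 12.02 in bFGF/BMP4-treated NSCs and 88.9 ± 8.02 in BMP4-treated NSCs, and made up 10.8%, 15.7% and 27.6% of the members' total. The cytoplasmic auxiliary subunits were instead highest with bFGF/EGF and summed to 61.7 ± 7.88, 11.0 ± 0.550 and 14.6 ± 1.06 FPKM. The membrane auxiliary subunits summed to 4.29 ± 1.08, 10.7 ± 2.43 and 33.8 ± 9.48 FPKM. The EAG, ERG and ELK class summed to 7.12 ± 0.698, 22.1 ± 3.84 and 11.4 ± 0.687 FPKM, and the calcium- and sodium-activated class to 4.68 ± 0.540, 17.7 ± 2.66 and 10.8 ± 1.39 FPKM. Both were highest with bFGF/BMP4 in every library. The Kv1 to Kv4 pore-forming subunits stayed within 117 to 152 FPKM in all 9 libraries, although single members of that class moved in opposite directions. These sums are descriptions with no test.

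**Figure D2:**
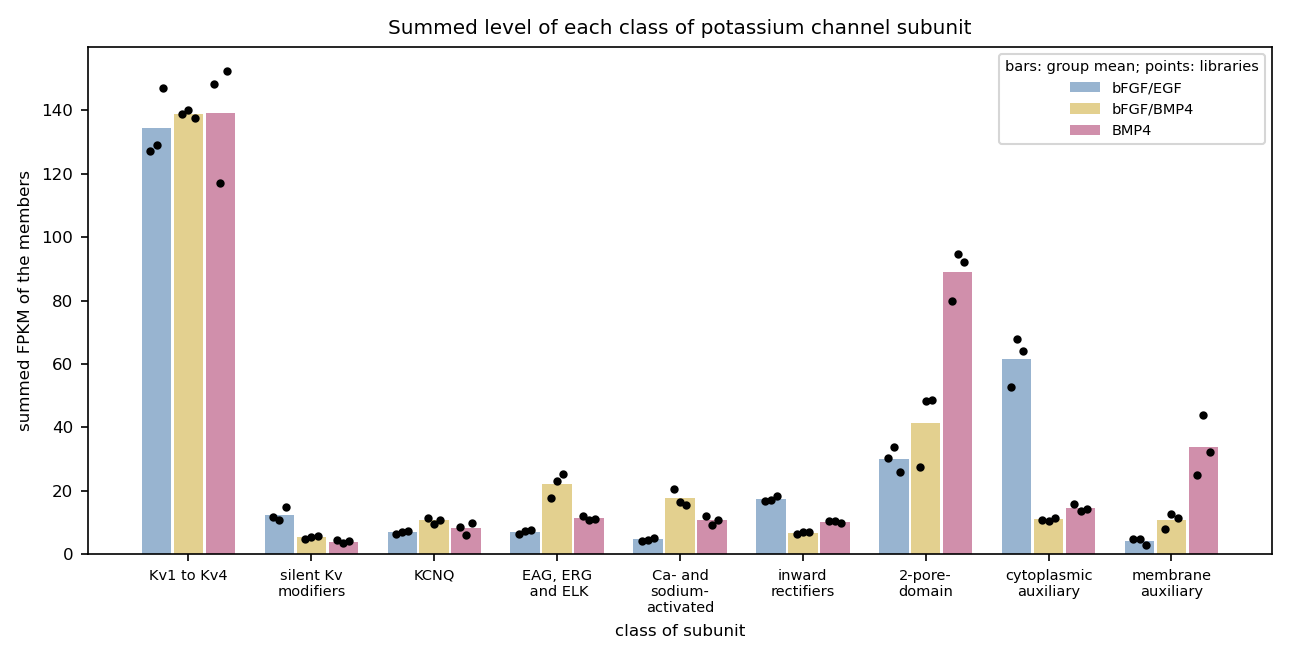
Summed FPKM of the members of each class (bars, group mean; points, the 3 libraries of a group). The Kv1 to Kv4 bars stand at 134, 139 and 139 FPKM, whereas the K2P bars rise from 30.1 to 88.9 FPKM and the cytoplasmic auxiliary bars drop from 61.7 to 11.0 and 14.6 FPKM.

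The Kv1 to Kv4 subunits form the voltage-gated pores proper, and 14 of the 17 were tested. Against bFGF/EGF, 6 rose and 4 fell with bFGF/BMP4, and 6 rose and 2 fell with BMP4. Between BMP4 and bFGF/BMP4, 2 rose and 3 fell. Over all tested genes the shares were 16.5% and 14.1%, 21.3% and 15.4%, and 8.41% and 5.14% in these comparisons in turn. Kcnc1, a fast channel of the Kv3 family that lets neurons fire at high rates, had the highest mean of all members, at 52.7, 63.2 and 59.0 FPKM with bFGF/EGF, 25.9, 21.2 and 22.0 with bFGF/BMP4 and 26.8, 18.9 and 24.2 with BMP4. The bFGF/EGF libraries lay above the other 6 without overlap, and the other groups overlapped. Kcnc1 fell in both BMP4-containing media (-1.34 ± 0.15, adjusted p = 5.3e-05 with bFGF/BMP4 and -1.33 ± 0.15, adjusted p = 3.9e-05 with BMP4). Its relative Kcnc4, which carries a rapidly inactivating current, did the reverse and was at 1.13, 1.00 and 1.21 FPKM with bFGF/EGF, 17.0, 21.4 and 24.6 with bFGF/BMP4 and 6.40, 8.01 and 11.3 with BMP4. Every library of a group was apart from those of the other groups, with bFGF/BMP4 highest. Kcnc4 rose with bFGF/BMP4 (4.10 ± 0.21, adjusted p = 4.3e-07) and with BMP4 (2.80 ± 0.21, adjusted p = 3.1e-06), and was lower with BMP4 than with bFGF/BMP4 (-1.30 ± 0.21, adjusted p = 0.0016).

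Kcna6, a Kv1 subunit, was among the members called in all 3 comparisons, and was at 3.05, 3.44 and 2.73 FPKM with bFGF/EGF, 12.3, 12.7 and 14.0 with bFGF/BMP4 and 29.9, 29.2 and 29.9 with BMP4. The 3 groups formed separate steps with little spread inside each. Kcna6 rose with bFGF/BMP4 (2.05 ± 0.12, adjusted p = 6.7e-07) and was higher again with BMP4 than with bFGF/BMP4 (1.19 ± 0.12, adjusted p = 7e-05). Kcna2, another Kv1 subunit of axons, was at 10.1, 6.86 and 14.1 FPKM with bFGF/EGF, 27.9, 23.8 and 21.6 with bFGF/BMP4 and 25.7, 13.9 and 24.4 with BMP4. The bFGF/BMP4 libraries lay above the bFGF/EGF ones, while BMP4 replicate 2 lay just below the highest bFGF/EGF library. Kcna2 rose with bFGF/BMP4 (1.28 ± 0.28, adjusted p = 0.004) and with BMP4 (1.05 ± 0.28, adjusted p = 0.01), but the second call was lost without bFGF/EGF replicate 2 (0.78), BMP4 replicate 1 (0.89) or BMP4 replicate 3 (0.92). A non-coding gene on the opposite strand, Gm27008, overlaps Kcna2 and had means of 0.0230, 1.38 and 1.30 FPKM, and the strand setting of the counting is not given in the sources used here.

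Kcnd2 and Kcnd3 encode the Kv4 pores of the transient A-type current, and they parted. Kcnd3 was at 29.3, 26.5 and 34.8 FPKM with bFGF/EGF, 27.5, 35.3 and 32.6 with bFGF/BMP4 and 31.6, 27.4 and 36.2 with BMP4. These groups overlapped, and Kcnd3 was not called (log2 fold change 0.08 ± 0.15, adjusted p = 0.71 with bFGF/BMP4 and 0.07 ± 0.15, adjusted p = 0.71 with BMP4). Its opposite-strand neighbour Kcnd3os was at 3.07, 3.10 and 3.26 FPKM. Kcnd2 was at 14.2, 11.4 and 15.7 FPKM with bFGF/EGF, 2.98, 3.29 and 4.21 with bFGF/BMP4 and 1.27, 1.45 and 1.88 with BMP4. The groups did not overlap and stepped down from bFGF/EGF to BMP4. Kcnd2 fell with bFGF/BMP4 (-1.95 ± 0.20, adjusted p = 2.9e-05) and with BMP4 (-3.09 ± 0.20, adjusted p = 1.1e-06), and was lower with BMP4 than with bFGF/BMP4 (-1.14 ± 0.20, adjusted p = 0.0023). The cytoplasmic KChIP subunits that bind Kv4 pores are described with the auxiliary subunits below.

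**Figure D3:**
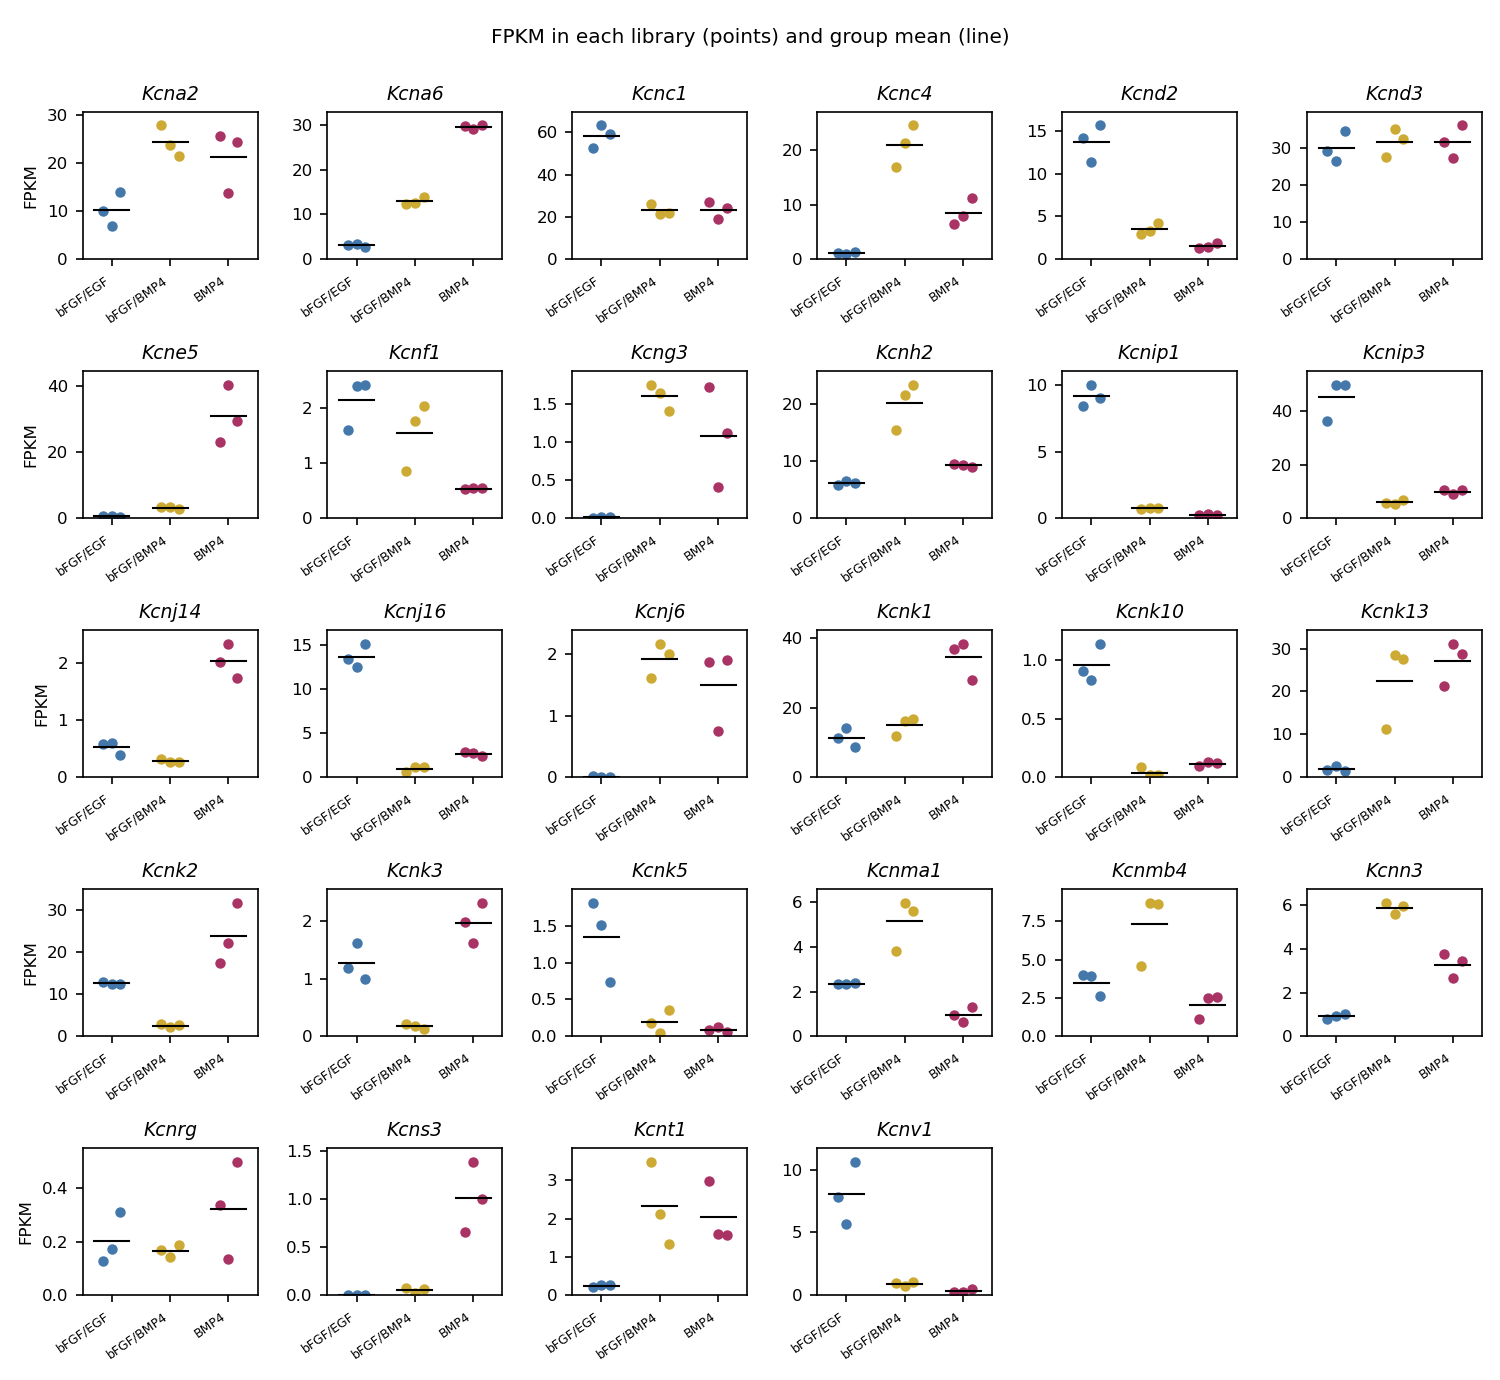
FPKM in each library (points) and the group mean (line) for the 28 members given with values in every library, each panel on its own linear scale from 0. Kcna6 steps up and Kcnd2 steps down across bFGF/EGF, bFGF/BMP4 and BMP4, Kcnma1 and Kcnh2 peak in bFGF/BMP4, and Kcnk2 and Kcnk3 are lowest there.

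The silent Kv subunits do not conduct alone and join the Kv2 pores. Of the 10 silent subunits 7 were tested, and between BMP4 and bFGF/BMP4 3 rose and 2 fell. The shares over all tested genes were 8.41% and 5.14%. The 3 that rose include Kcns3, which reached the test's level in the BMP4 group only and so could not have been called lower here. Kcnv1 was the highest of the class, at 7.80, 5.71 and 10.6 FPKM with bFGF/EGF, 0.963, 0.753 and 1.10 with bFGF/BMP4 and 0.269, 0.269 and 0.489 with BMP4. The groups did not overlap, with bFGF/EGF highest. Kcnv1 fell with bFGF/BMP4 (-2.94 ± 0.29, adjusted p = 2.3e-05) and with BMP4 (-4.19 ± 0.29, adjusted p = 1.6e-06), and lay lower with BMP4 than with bFGF/BMP4 (-1.25 ± 0.29, adjusted p = 0.011). Kcng3 was at 0, 0.0188 and 0.0169 FPKM with bFGF/EGF, 1.76, 1.65 and 1.42 with bFGF/BMP4 and 1.73, 0.405 and 1.12 with BMP4. It was at the floor in the bFGF/EGF group and above it in all 6 libraries with BMP4 protein, at least 28.9-fold higher with bFGF/BMP4 and at least 19.4-fold higher with BMP4. Kcns3 was at 0 FPKM in each library with bFGF/EGF, 0.0787, 0.0206 and 0.0645 FPKM with bFGF/BMP4 and 0.662, 1.39 and 0.996 FPKM with BMP4, so that only the BMP4 libraries were above 0.1 FPKM. It was at least 16.9-fold higher with BMP4 than with bFGF/EGF, and its log2 fold change from bFGF/BMP4 to BMP4 was 2.82 ± 0.37, adjusted p = 0.00046. Kcnf1 was at 1.60, 2.40 and 2.43 FPKM with bFGF/EGF, 0.858, 1.77 and 2.04 with bFGF/BMP4 and 0.527, 0.541 and 0.544 with BMP4. The BMP4 libraries were the lowest and nearly equal. Kcnf1 fell with BMP4 against bFGF/EGF (-1.79 ± 0.31, adjusted p = 0.00076) and against bFGF/BMP4 (-1.30 ± 0.31, adjusted p = 0.014), although the second call was lost without bFGF/BMP4 replicate 2 (-1.17) or replicate 3 (-1.07). Kcns1 and Kcng2, at no more than 0.310 and 0.233 FPKM in any group mean, were called higher with BMP4 than with bFGF/BMP4, where both were at the floor. Kcns1 was at least 4.57-fold and Kcng2 at least 3.82-fold higher, but each of these calls was lost without BMP4 replicate 1, BMP4 replicate 2, bFGF/BMP4 replicate 2 or bFGF/BMP4 replicate 3. The fitted log2 fold change was then between 1.36 and 1.59 for Kcns1 and between 1.38 and 1.54 for Kcng2.

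Among the KCNQ subunits, which carry the M current that restrains repetitive firing, 4 of 5 were tested and Kcnq1, the heart and epithelial form, was not. Kcnq3, a subunit of the neuronal M channel, had means of 1.26, 2.85 and 2.13 FPKM and was called higher only with bFGF/BMP4 against bFGF/EGF (1.18 ± 0.29, adjusted p = 0.0075). Kcnq5, a further member of the family, was not called, with means of 2.55, 1.58 and 1.62 FPKM.

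Of the 8 EAG, ERG and ELK subunits 5 were tested, and Kcnh2, the ERG channel that repolarises heart cells, held most of the class total. It was at 5.74, 6.57 and 6.19 FPKM with bFGF/EGF, 15.5, 21.7 and 23.5 with bFGF/BMP4 and 9.60, 9.30 and 9.05 with BMP4. The groups did not overlap, with bFGF/BMP4 highest and BMP4 in between. Kcnh2 rose with bFGF/BMP4 (1.68 ± 0.15, adjusted p = 1.5e-05), did not reach the 2-fold threshold with BMP4 against bFGF/EGF (0.59 ± 0.15, adjusted p = 0.0083), and was lower with BMP4 than with bFGF/BMP4 (-1.09 ± 0.15, adjusted p = 0.00068). That last change shrank to -0.97, under the threshold, without bFGF/BMP4 replicate 3. The other ERG members Kcnh6 and Kcnh7 were low, with means of 0.133, 0.322 and 0.766 and of 0.0501, 0.134 and 0.316 FPKM, and were called higher with BMP4 than with bFGF/EGF. Without bFGF/EGF replicate 3 the mean of Kcnh6 in that group was 0.0872 FPKM. Kcnh7 overlaps Gca on the opposite strand, which had means of 1.35, 4.46 and 7.94 FPKM.

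Of the 6 tested members of the calcium- and sodium-activated class, 5 were called higher with bFGF/BMP4 than with bFGF/EGF and 0 lower. With BMP4, 4 were higher and 1 was lower than in bFGF/EGF. Over all tested genes, 16.5% were higher and 14.1% lower with bFGF/BMP4, and 21.3% higher and 15.4% lower with BMP4. Kcnn3, a small-conductance (SK) channel opened by calcium bound to calmodulin, was at 0.771, 0.944 and 1.02 FPKM with bFGF/EGF, 6.13, 5.59 and 5.96 with bFGF/BMP4 and 3.77, 2.66 and 3.45 with BMP4. No groups overlapped, and bFGF/BMP4 was highest. Kcnn3 rose with bFGF/BMP4 (2.57 ± 0.17, adjusted p = 2.3e-06) and with BMP4 (1.74 ± 0.17, adjusted p = 2e-05). The other SK members Kcnn1 and Kcnn2 rose in both groups too, with means of 0.582, 1.84 and 1.69 and of 0.243, 2.28 and 2.60 FPKM. The bFGF/BMP4 mean of Kcnn2 rests on replicate 1, since the 3 libraries were at 4.68, 1.27 and 0.910 FPKM. Without that library the mean was 1.09 FPKM and Kcnn2 was called higher with BMP4 than with bFGF/BMP4 (1.20, adjusted p = 0.019). Kcnt1, a sodium-activated channel, was at 0.210, 0.266 and 0.268 FPKM with bFGF/EGF, 3.48, 2.13 and 1.34 with bFGF/BMP4 and 2.97, 1.59 and 1.57 with BMP4. All 6 libraries with BMP4 protein were above the 3 without it. Kcnt1 rose with bFGF/BMP4 (2.70 ± 0.36, adjusted p = 0.00017) and with BMP4 (2.56 ± 0.36, adjusted p = 0.00018).

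Kcnma1, the large-conductance (BK) channel gated by calcium and voltage together, was the member called in opposite directions by the 2 quiescence media. It was at 2.33, 2.32 and 2.40 FPKM with bFGF/EGF, 3.82, 5.97 and 5.61 with bFGF/BMP4 and 0.954, 0.640 and 1.29 with BMP4. The groups did not overlap, with bFGF/BMP4 above bFGF/EGF and BMP4 below it. Kcnma1 rose with bFGF/BMP4 (1.07 ± 0.25, adjusted p = 0.0055), fell with BMP4 (-1.25 ± 0.25, adjusted p = 0.0019), and was lower with BMP4 than with bFGF/BMP4 (-2.32 ± 0.25, adjusted p = 0.00014). The rise with bFGF/BMP4 dropped just under the 2-fold threshold without bFGF/BMP4 replicate 2 (0.95) or replicate 3 (0.995). The gene (ENSMUSG00000063142) spans chr14:23339499-24064559 on the minus strand of GRCm39. Kcnmb4, the auxiliary subunit of BK channels in neurons, was at 3.98, 3.92 and 2.60 FPKM with bFGF/EGF, 4.55, 8.71 and 8.61 with bFGF/BMP4 and 1.15, 2.47 and 2.57 with BMP4. The bFGF/BMP4 libraries were above all others and the BMP4 libraries were all below the bFGF/EGF ones. Kcnmb4 was lower with BMP4 than with bFGF/BMP4 (-1.79 ± 0.34, adjusted p = 0.0043). Its call against bFGF/EGF in the bFGF/BMP4 group (1.00 ± 0.34, adjusted p = 0.036) was lost without bFGF/EGF replicate 1 (1.10), 2 (1.09) or 3 (0.81) or bFGF/BMP4 replicate 2 (0.85) or 3 (0.85). Kcnmb4os2, which overlaps Kcnmb4 on the opposite strand, had means of 4.54, 5.75 and 1.39 FPKM. Kcnmb1, Kcnmb2 and Kcnmb3, the other BK auxiliary members, were below the test's level.

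Among the 14 inward rectifiers 8 were tested, and 1 of them dominated the bFGF/EGF group. Kcnj16 encodes a subunit that conducts as a partner of other inward rectifiers, and was at 13.4, 12.5 and 15.2 FPKM with bFGF/EGF, 0.632, 1.19 and 1.12 with bFGF/BMP4 and 2.91, 2.75 and 2.42 with BMP4. The groups did not overlap, and bFGF/BMP4 was lowest. Kcnj16 fell with bFGF/BMP4 (-3.71 ± 0.22, adjusted p = 8.9e-07) and with BMP4 (-2.30 ± 0.22, adjusted p = 1.3e-05), and was higher with BMP4 than with bFGF/BMP4 (1.41 ± 0.22, adjusted p = 0.0012). Kcnj6, a channel opened by G proteins, was higher in both quiescence media, at 0.0154, 0.00828 and 0 FPKM with bFGF/EGF, 1.61, 2.17 and 2.00 with bFGF/BMP4 and 1.86, 0.752 and 1.90 with BMP4. It was at the floor in bFGF/EGF and at least 78.1-fold higher with bFGF/BMP4 and at least 61.1-fold higher with BMP4. The overlapping opposite-strand gene Gm41505 went the same way, with means of 0.0860, 3.62 and 3.18 FPKM. The G-protein-gated member Kcnj9 was also called higher in both, with means of 0.508, 2.22 and 1.85 FPKM, and overlaps the more abundant Igsf8. Kcnj14, a strong inward rectifier, was at 0.585, 0.605 and 0.396 FPKM with bFGF/EGF, 0.321, 0.264 and 0.275 with bFGF/BMP4 and 2.02, 2.34 and 1.74 with BMP4. The BMP4 libraries were the highest and the bFGF/BMP4 ones the lowest. Kcnj14 rose with BMP4 against bFGF/EGF (1.77 ± 0.24, adjusted p = 0.00017) and against bFGF/BMP4 (2.46 ± 0.24, adjusted p = 8.5e-05).

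The K2P class held several of the widest differences between BMP4 and bFGF/BMP4, with 4 of 10 tested members higher and 0 lower. Over all tested genes, these shares were 8.41% and 5.14%. The 4 include Kcnk9, which reached the test's level in the BMP4 group only and so could not have been called lower here. Kcnk2 (ENSMUSG00000037624, chr1:188940126-189134470, minus strand, GRCm39), a leak channel of the TREK type that responds to stretch and lipids, was at 12.9, 12.3 and 12.3 FPKM with bFGF/EGF, 2.83, 2.23 and 2.57 with bFGF/BMP4 and 17.5, 22.1 and 31.7 with BMP4. No groups overlapped, and bFGF/BMP4 was the low one. Kcnk2 fell with bFGF/BMP4 (-2.26 ± 0.20, adjusted p = 1.1e-05) and was higher with BMP4 than with bFGF/BMP4 (3.13 ± 0.20, adjusted p = 6.8e-06). Against bFGF/EGF the BMP4 group did not reach the 2-fold threshold (0.87 ± 0.20, adjusted p = 0.0036), except when BMP4 replicate 1 was left out (1.07). Kcnk3, an acid-sensitive TASK channel, had the same shape at a lower level, at 1.18, 1.62 and 0.996 FPKM with bFGF/EGF, 0.219, 0.180 and 0.120 with bFGF/BMP4 and 1.98, 1.61 and 2.32 with BMP4. Its bFGF/BMP4 libraries were below all others and the highest bFGF/EGF library was just above the lowest BMP4 one. Kcnk3 fell with bFGF/BMP4 (-2.31 ± 0.27, adjusted p = 6.9e-05) and was higher with BMP4 than with bFGF/BMP4 (2.93 ± 0.27, adjusted p = 4.9e-05). The related TASK gene Kcnk9 was at the floor in the bFGF/EGF and bFGF/BMP4 groups and at a mean of 0.319 FPKM with BMP4, at least 21.0-fold higher than each.

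Kcnk1, a weakly conducting leak channel common in astrocytes, was at 11.2, 14.2 and 8.58 FPKM with bFGF/EGF, 11.97, 16.2 and 16.7 with bFGF/BMP4 and 36.9, 38.4 and 28.0 with BMP4. The BMP4 libraries were above all others, and the other groups overlapped. Kcnk1 rose with BMP4 against bFGF/EGF (1.61 ± 0.21, adjusted p = 0.00011) and against bFGF/BMP4 (1.20 ± 0.21, adjusted p = 0.0023). Kcnk13, a leak channel of the THIK type, was at 1.66, 2.52 and 1.49 FPKM with bFGF/EGF, 11.1, 28.5 and 27.5 with bFGF/BMP4 and 21.2, 31.1 and 28.7 with BMP4. All libraries with BMP4 protein lay above those with bFGF/EGF, and bFGF/BMP4 replicate 1 stood apart from its group. Kcnk13 rose with bFGF/BMP4 (3.41 ± 0.35, adjusted p = 3e-05) and with BMP4 (3.78 ± 0.35, adjusted p = 1e-05). Kcnk10, the closest TREK relative of Kcnk2, and Kcnk5, an alkali-activated K2P channel, fell in both media. Kcnk10 was at 0.912, 0.829 and 1.14 FPKM with bFGF/EGF, 0.0851, 0.0149 and 0.0155 with bFGF/BMP4 and 0.0983, 0.127 and 0.117 with BMP4. Kcnk5 was at 1.81, 1.505 and 0.732 FPKM with bFGF/EGF, 0.183, 0.0383 and 0.359 with bFGF/BMP4 and 0.0905, 0.127 and 0.0534 with BMP4. For both genes every bFGF/EGF library exceeded every other library. Kcnk10 fell with bFGF/BMP4 (-2.96 ± 0.33, adjusted p = 5.7e-05) and with BMP4 (-2.30 ± 0.33, adjusted p = 0.00023), and Kcnk5 likewise (-2.38 ± 0.49, adjusted p = 0.0025 and -2.86 ± 0.49, adjusted p = 0.00067).

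The cytoplasmic auxiliary subunits contain the calcium-binding KChIP proteins, which bind Kv4 pores, and the beta subunits of Kv1 pores. Of the 6 tested members 3 fell and 0 rose with bFGF/BMP4, and 3 fell and 0 rose with BMP4, both against bFGF/EGF. The shares falling and rising over all tested genes were 14.1% and 16.5% with bFGF/BMP4 and 15.4% and 21.3% with BMP4. Kcnip3, which is also known as a calcium-dependent transcriptional repressor, was at 36.3, 50.1 and 50.0 FPKM with bFGF/EGF, 5.79, 5.24 and 6.98 with bFGF/BMP4 and 10.5, 9.04 and 10.4 with BMP4. The bFGF/EGF libraries were far above the rest, and the BMP4 libraries lay above the bFGF/BMP4 ones. Kcnip3 fell with bFGF/BMP4 (-2.90 ± 0.16, adjusted p = 5.8e-07) and with BMP4 (-2.17 ± 0.16, adjusted p = 2.5e-06). Kcnip1 (ENSMUSG00000053519, chr11:33576285-33943152, minus strand, GRCm39) was at 8.39, 10.0 and 9.00 FPKM with bFGF/EGF, 0.701, 0.754 and 0.765 with bFGF/BMP4 and 0.254, 0.343 and 0.211 with BMP4. The 3 groups were apart, in the order that Kcnd2 also had. Kcnip1 fell with bFGF/BMP4 (-3.46 ± 0.20, adjusted p = 7.5e-07) and with BMP4 (-4.66 ± 0.20, adjusted p = 9.4e-08), and was lower with BMP4 than with bFGF/BMP4 (-1.20 ± 0.20, adjusted p = 0.0017). The beta subunit Kcnab2 was not called, with means of 4.63, 2.75 and 2.87 FPKM.

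Of the 9 membrane auxiliary members 3 were tested. Kcne5 (ENSMUSG00000090122, chrX:141087748-141089290, minus strand, GRCm39), a single-span subunit of the MinK family, was at 0.686, 0.738 and 0.330 FPKM with bFGF/EGF, 3.35, 3.46 and 2.64 with bFGF/BMP4 and 23.3, 40.6 and 29.4 with BMP4. The groups did not overlap, and the BMP4 libraries also had the widest spread. Kcne5 rose with bFGF/BMP4 (2.30 ± 0.28, adjusted p = 0.0001) and with BMP4 (5.53 ± 0.28, adjusted p = 2.8e-07), and was higher with BMP4 than with bFGF/BMP4 (3.23 ± 0.28, adjusted p = 3.7e-05). Kcnq1, the pore for which MinK subunits are best known, had means of no more than 0.0250 FPKM. Kcnrg, a soluble protein that hinders assembly of Kv1 channels, was at 0.129, 0.173 and 0.310 FPKM with bFGF/EGF, 0.171, 0.143 and 0.186 with bFGF/BMP4 and 0.338, 0.135 and 0.498 with BMP4. Its groups overlapped and it was not called.

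The members called between BMP4-treated and bFGF/BMP4-treated NSCs, which shared the day of collection, spanned log2 fold changes from -2.32 for Kcnma1 to 3.23 for Kcne5. Of the 13 that rose, 4 had fallen with bFGF/BMP4 and were not called with BMP4 against bFGF/EGF (Kcna5, Kcng2, Kcnk2 and Kcnk3), and Kcnj16 had fallen in both. The fall of Kcng2 with bFGF/BMP4, at least 3.31-fold to the floor, was lost without bFGF/BMP4 replicate 2 (-1.29) or 3 (-1.29) or bFGF/EGF replicate 1 (-1.27) or 2 (-1.19). Of the 10 that fell, Kcnh2 and Kcnmb4 had risen with bFGF/BMP4 and were not called with BMP4 against bFGF/EGF. Kcnd2, Kcnip1 and Kcnv1 were lower in each step from bFGF/EGF through bFGF/BMP4 to BMP4, and Kcna6 and Kcne5 were higher in each. A further 14 members rose in both media with no call between BMP4 and bFGF/BMP4, namely Kcna2, Kcna4, Kcnc2, Kcnd1, Kcng3, Kcnh5, Kcnj6, Kcnj9, Kcnk4, Kcnk13, Kcnn1, Kcnn2 (called without bFGF/BMP4 replicate 1, as given above), Kcnn3 and Kcnt1. The rise of Kcnh5 with BMP4 was lost without BMP4 replicate 1 (1.18) or 3 (1.38) or bFGF/EGF replicate 1 (1.31) or 2 (1.10). In the same way 5 fell in both, namely Kcnc1, Kcnip3, Kcnj2, Kcnk5 and Kcnk10. In a single comparison with bFGF/EGF, Kcnq3 rose and Kcnip2 fell with bFGF/BMP4, while Kcnh6, Kcnh7 and Kcnk7 rose and Kcnab3, Kcng1 and Kcnk12 fell with BMP4. The rise of Kcnk7 was lost without BMP4 replicate 1 (1.13) or 2 (1.43) or bFGF/EGF replicate 1 (1.20) or 3 (1.36). The tested members with no call included Kcna3, Kcnab2, Kcnd3, Kcne2, Kcnh4, Kcnip4, Kcnj4, Kcnj11, Kcnj12, Kcnq5, Kcnrg and Kcnu1. Of these, a call appeared when 1 library was left out for Kcna3 (-1.06 without bFGF/BMP4 replicate 2 and -1.04 without bFGF/EGF replicate 2), Kcnh4 (-1.32 without bFGF/EGF replicate 1) and Kcnj4 (-1.14 without bFGF/BMP4 replicate 3) between bFGF/BMP4 and bFGF/EGF. The same held for Kcnip4 between BMP4 and bFGF/EGF (1.04 without bFGF/EGF replicate 3) and for Kcne2 between BMP4 and bFGF/BMP4 (1.88 without bFGF/BMP4 replicate 2). Kcna1 was called in the direct comparison alone (-1.14 ± 0.25, adjusted p = 0.0086), a call lost without BMP4 replicate 3 (-0.97) or bFGF/BMP4 replicate 2 (-0.95), and it was also called higher with bFGF/BMP4 than with bFGF/EGF without bFGF/BMP4 replicate 3 (1.03).

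**Figure D4:**
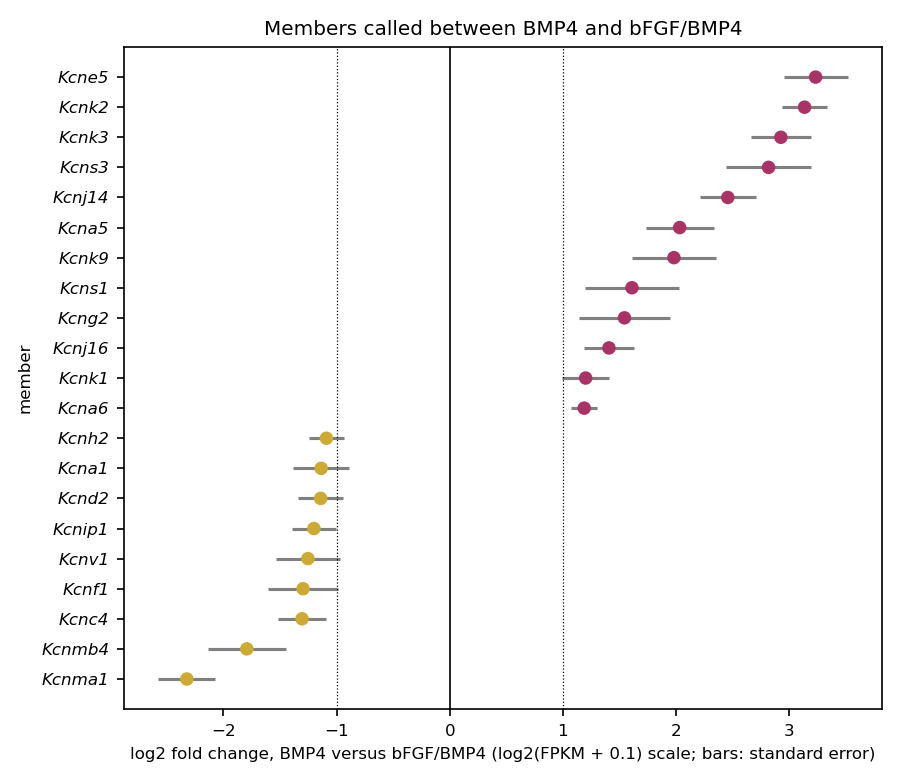
Log2 fold change of BMP4 against bFGF/BMP4 on the log2(FPKM + 0.1) scale, with its standard error (bars), for 21 of the 23 called members, and dotted lines at the 2-fold threshold. Of these, 12 lie to the right, from 1.19 for Kcna6 to 3.23 for Kcne5, and 9 to the left, down to -2.32 for Kcnma1.

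Some members are neighbours on a chromosome, and these pairs were looked at after their values were seen. Kcna5, Kcna1 and Kcna6 lie in a row on the minus strand of chromosome 6, with gaps of 105.0 and 61.9 kb and no other coding gene between them. Their group means, in the order used above, were 0.715, 0.210 and 1.15 FPKM for Kcna5, 1.78, 3.22 and 1.38 FPKM for Kcna1 and 3.07, 13.0 and 29.7 FPKM for Kcna6. Thus bFGF/BMP4 was the lowest, the highest and the middle group for these 3 neighbours in turn. Kcnj16 and Kcnj2 lie 29.4 kb apart on the plus strand of chromosome 11 with no coding gene between them. Kcnj2, a strong inward rectifier, had means of 0.579, 0.0397 and 0.124 FPKM and fell with bFGF/BMP4 (-2.31 ± 0.37, adjusted p = 0.00052) and with BMP4 (-1.64 ± 0.37, adjusted p = 0.0035), as Kcnj16 did. Its bFGF/BMP4 mean was 0.0177 FPKM without replicate 2.

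Promoters were read from the GRCm39 genome as the 250 bases before the start of each gene's canonical transcript in the GENCODE annotation, for each of the 93 members. They were searched on both strands for GTCTG, the short SMAD binding element (CAGAC on the other strand), and for the palindrome GGCGCC, a GC-rich SMAD element known from BMP target genes. Matches of the 2 motifs can share no more than 1 base. GTCTG was found in 7 of the 9 members that were lower in both media (77.8%), in 4 of the 17 that were higher in both (23.5%), in 39 of all 93 members (41.9%) and in 41.3% of 21770 coding genes. GGCGCC was found in 0 of those 9, in 2 of those 17 (11.8%), in 13 of all members (14.0%) and in 9.31% of coding genes. These shares are descriptions over few genes, with no test, and a match is not a binding site. The promoters of Kcnk5 and Kcnj16, which fell in both media, and of Kcng3, which rose in both, are shown 5′ to 3′ on the gene's strand with the matches in capitals.
Kcnk5: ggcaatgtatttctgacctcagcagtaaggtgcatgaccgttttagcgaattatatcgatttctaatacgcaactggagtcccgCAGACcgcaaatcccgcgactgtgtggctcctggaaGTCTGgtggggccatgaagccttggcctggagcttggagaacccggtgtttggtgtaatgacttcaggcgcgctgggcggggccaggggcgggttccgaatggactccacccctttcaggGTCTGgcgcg
Kcnj16: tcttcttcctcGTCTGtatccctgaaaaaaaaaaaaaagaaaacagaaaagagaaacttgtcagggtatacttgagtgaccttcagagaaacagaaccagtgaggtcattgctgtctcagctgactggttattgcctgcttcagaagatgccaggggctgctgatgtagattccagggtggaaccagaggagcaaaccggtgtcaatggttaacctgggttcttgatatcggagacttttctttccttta
Kcng3: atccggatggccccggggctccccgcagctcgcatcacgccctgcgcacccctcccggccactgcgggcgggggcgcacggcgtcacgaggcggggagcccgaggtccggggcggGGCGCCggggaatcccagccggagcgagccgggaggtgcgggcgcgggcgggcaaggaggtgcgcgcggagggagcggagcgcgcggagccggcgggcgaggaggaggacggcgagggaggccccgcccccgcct
They lie at chr14:20231901-20232150 on the minus strand, chr11:110858593-110858842 on the plus strand and chr17:83939364-83939613 on the minus strand of GRCm39. The Kcnk5 window holds 3 matches of GTCTG, the Kcnj16 window 1, and the Kcng3 window 1 match of GGCGCC, and their GC contents are 57.6%, 44.0% and 82.0%. These windows are examples and do not stand for their sets. Kcnd2 and Kcnip1, which also fell in both media, held no match of either motif. Kcng3 is 1 of only 2 members with GGCGCC among the 17 that were higher in both.

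Other genes that handle potassium were taken from 3 lists. Of 18 partner subunits and interacting proteins 13 were tested, and 4 rose and 2 fell in BMP4-treated against bFGF/BMP4-treated NSCs. Over all tested genes, 8.41% rose and 5.14% fell between these groups. Dpp6, which travels with Kv4 pores and KChIPs, was at 2.70, 3.24 and 2.66 FPKM with bFGF/EGF, 2.00, 2.73 and 4.12 with bFGF/BMP4 and 0.229, 0.275 and 0.575 with BMP4. Its BMP4 libraries were below all others (-2.74 ± 0.32, adjusted p = 0.00023 against bFGF/BMP4), while bFGF/EGF and bFGF/BMP4 overlapped. Lrrc52, a gamma subunit of BK-type channels, was at 0 FPKM in each library with bFGF/EGF, 0.109, 0 and 0 FPKM with bFGF/BMP4 and 1.29, 1.40 and 0.743 FPKM with BMP4. It was at the floor in the bFGF/EGF and bFGF/BMP4 groups and at least 3.55-fold higher with BMP4. Lgi4, a secreted protein of the LGI family, was at 0 FPKM in each library with bFGF/EGF, 0.312, 0.156 and 0.119 FPKM with bFGF/BMP4 and 4.12, 3.35 and 2.94 FPKM with BMP4, and rose likewise (3.63 ± 0.32, adjusted p = 3.8e-05). Of 22 pumps and cotransporters 14 were tested, and 5 rose and 2 fell between the same groups. Fxyd1, a small regulator of the sodium-potassium pump, was at 0 FPKM in each library with bFGF/EGF, 2.45, 1.25 and 1.62 FPKM with bFGF/BMP4 and 16.3, 18.9 and 13.7 FPKM with BMP4, and rose from bFGF/BMP4 to BMP4 (3.17 ± 0.25, adjusted p = 2.2e-05). Of 11 other channels that pass potassium 6 were tested and 1 was called between these groups. This was Hcn4, a pacemaker channel opened by hyperpolarisation, at 0.115, 0.155 and 0.00925 FPKM with bFGF/EGF, 0.0204, 0.0746 and 0.0222 with bFGF/BMP4 and 1.08, 0.616 and 0.634 with BMP4, which was highest in the BMP4 libraries (2.64 ± 0.43, adjusted p = 0.0016).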

How the data were processed

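Total RNA of the 9 cultures was sequenced by the authors, who cleaned the reads with fastp 0.19.7 and aligned them to mm39 with HISAT2 2.0.5. featureCounts 1.5.0-p3 is named in the submitters' processing notes. The annotation release and the strand setting are not given in the sources used here. The deposited table holds FPKM values per Ensembl gene and library, made by the authors. From these, whole fragment numbers were rebuilt for 30856 of the 30860 genes above 0 (99.99%), giving 15892849 to 17222564 fragments per library. The floor of 3 fragments covers counting error only. Differences were tested with limma 3.58.1 (R 4.3.3), as limma-trend on log2(FPKM + 0.1), over the 20207 genes with a mean of at least 0.1 FPKM and all 9 libraries, with Benjamini-Hochberg adjustment. The fit was tested on simulated data.

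Values in every library are given for the 8 members with the highest mean FPKM, for the 6 called members that rose most and the 6 that fell most in each comparison (at least 0.5 FPKM in the higher group), for the highest member of each class, for members called in opposite directions, and for up to 3 genes of each other list. Some genes that met this rule are not reported here. Other genes were named after their values were seen. The members and lists were chosen with earlier results of these data known. Symbols and coordinates are from GENCODE vM39. Alternatives were pseudocounts of 1 and 0.01, other filters and scalings, limma-voom on the rebuilt fragments, a replicate block, only the groups compared, no fold threshold and each library left out.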

Additional observations from a re-analysis of the deposited data

Results flagged for a closer look

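Kcnma1, the BK channel, differed by -2.32 on the log2 scale between BMP4-treated and bFGF/BMP4-treated NSCs. It stands out because it was called in opposite directions against bFGF/EGF, higher with bFGF/BMP4 (1.07 ± 0.25, SE, adjusted p = 0.0055) and lower with BMP4 (-1.25 ± 0.25, adjusted p = 0.0019), and the difference between the media was itself called (limma adjusted p = 0.00014). The call of the rise with bFGF/BMP4 was lost, just under the 2-fold threshold, without bFGF/BMP4 replicate 2 (0.951) or replicate 3 (0.995). The 2 comparisons share the bFGF/EGF libraries.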

How the results depend on the processing

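Every count of called members stayed within 1.5 times its value under the alternatives run, except under a pseudocount of 1 or a filter at a mean of 1 FPKM. With a pseudocount of 1, which shrinks the change of low genes, 7 members rose and 5 fell between BMP4 and bFGF/BMP4, 13 rose and 7 fell between bFGF/BMP4 and bFGF/EGF, and 11 rose and 8 fell between BMP4 and bFGF/EGF. With the filter at 1 FPKM, which tests fewer members, 7 rose between BMP4 and bFGF/BMP4 and 9 fell between bFGF/BMP4 and bFGF/EGF. Between BMP4 and bFGF/EGF, 14 rose and 9 fell with that filter. The shares over all tested genes under the alternatives are not given here, and the shares above belong to the main setting. The counts under alternatives are therefore descriptions only. Leaving out each library in turn gave 10 to 14 rising and 8 to 10 falling members between BMP4 and bFGF/BMP4, 20 to 22 and 15 to 16 between bFGF/BMP4 and bFGF/EGF, and 22 to 26 and 14 to 15 between BMP4 and bFGF/EGF. Of the recomputed log2 fold changes of the 28 members with values in every library, 1514 kept their direction and call, 35 lost the call, 9 gained it and 20 changed sign. None of the 20 was called before or after. Between BMP4 and bFGF/BMP4, leaving out each library in turn gave -0.398 to 0.044 for Kcna2, -0.103 to 0.149 for Kcnc1, -0.105 to 0.095 for Kcnd3, -0.071 to 0.602 for Kcnk13 and -0.46 to 0.197 for Kcnt1. It gave -0.012 to 0.184 for Kcnd3 and -0.332 to 0.089 for Kcnrg between bFGF/BMP4 and bFGF/EGF, and -0.026 to 0.179 for Kcnd3 between BMP4 and bFGF/EGF. Kcnc1 between BMP4 and bFGF/BMP4 was -0.068 on the TPM scale and -0.008 with median-ratio scaling, and Kcnd3 between BMP4 and bFGF/EGF was -0.013 on the TPM scale. The cause was not tested. Without 1 library, calls also appeared for Kcng1 (-1.08 against bFGF/BMP4 without BMP4 replicate 3 and -1.03 with bFGF/BMP4 against bFGF/EGF without bFGF/EGF replicate 3), Kcnh6 (1.17, that same library and comparison) and Kcnq3 (1.03 with BMP4 against bFGF/EGF, that library). The summed level of the Kv1 to Kv4 subunits with bFGF/BMP4 moved beyond its SD on the TPM scale (141) and with median-ratio scaling (137). Other scalings moved no median over all genes beyond 0.1 on the log2 scale. Same-numbered libraries of different groups did not deviate together (correlations from -0.084 to 0.125), so no effect shared by number was seen. With 3 libraries per group this cannot show whether same-numbered cultures shared an isolation. With the replicate block, 13 members rose and 10 fell between BMP4 and bFGF/BMP4, 22 and 15 between bFGF/BMP4 and bFGF/EGF, and 24 and 14 between BMP4 and bFGF/EGF. Not every library correlated best with its own number. Members under about 1 FPKM rest on few fragments, so their fold changes depend most on these choices.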
